A study of Rattus norvegicus with 83 samples.

Results

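The genes described here are 10 rows of the deposited count table that hold the machinery of the adrenaline-forming cells of the adrenal medulla, chosen by name from the 17483 gene symbols of the table: Th, Ddc, Dbh, Pnmt, Slc18a1, Chga, Chgb, Scg2, Npy and Phox2a. All 10 were present, and their values came from 83 libraries in 10 groups. The assay, BRB-seq, is a pooled RNA-seq method that gives the polyadenylated RNA of each sample a barcode of its own and reads its 3′ end. The RNA came from offspring of Sprague-Dawley dams that were gavaged once a day from gestational day 7 (GD7), with birth expected on GD23. The labels' protocol gives pup day 22 (PD22) as the end of dosing, while the series' design text gives PD16. The groups labelled PD16 were methimazole at 8 mg/kg per day (PD16 MMI8, n = 10) and 16 mg/kg per day (PD16 MMI16, n = 10), amitrole at 25 mg/kg per day (PD16 Ami25, n = 11) and 50 mg/kg per day (PD16 Ami50, n = 12), and corn oil (PD16 Vehicle, n = 10). The groups labelled GD21 were the same treatments, GD21 MMI8, GD21 MMI16, GD21 Ami25, GD21 Ami50 and GD21 Vehicle, with 6 libraries each. Methimazole and amitrole both inhibit thyroid peroxidase, the enzyme that puts iodine on thyroglobulin. The labels name neither litters nor dams for the libraries, so the p-values measure only the spread between these samples.

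Chromaffin cells of the adrenal medulla make catecholamines in a fixed order of steps. Th turns tyrosine into L-DOPA and is the rate-limiting enzyme, Ddc turns L-DOPA into dopamine, Dbh turns dopamine into noradrenaline inside the storage granule, and Pnmt methylates noradrenaline to adrenaline. Slc18a1, the vesicular monoamine transporter of these cells, loads the amines into granules whose soluble core is built from the granins Chga, Chgb and Scg2, and Npy is a peptide released with them. Phox2a is a homeodomain transcription factor of the noradrenergic lineage. The medulla lies inside the steroid-making adrenal cortex, and glucocorticoids from the cortex are known to sustain Pnmt in the rat.

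Several measurements went against the labels and bear on every comparison below. The labels call the tissue testis, but 9 testis genes together held 100 of 57573311 counts, 28 libraries held none of them, and their sum never passed 9.99 CPM (counts scaled to a library total of 1e6). The 10 chromaffin genes summed to between 854 and 2448 CPM and 7 adrenal cortex genes to between 7610 and 58867 CPM in the same libraries. The embryonic globins Hbe1, Hbz and Hbg1 made up 17.2 ± 2.84% of globin counts in PD16 MMI8 (SD, n = 10), 16.5 ± 4.33% in PD16 MMI16 (n = 10) and 14.9 ± 2.54% in PD16 Vehicle (n = 10), against means of 0.181% in PD16 Ami25, 0.143% in PD16 Ami50 and 0.0990% to 0.277% in the GD21 groups. These globins belong to early embryonic red cells, so the stage labels of the PD16 methimazole and vehicle libraries met values that went against them, and between these groups and the PD16 amitrole groups a treatment difference and an age difference cannot be told apart. In PD16 Ami50, 8 of 12 libraries had the Y-linked gene Eif2s3y under 10 CPM, which no other library did, and 15 libraries, called Alb-high below, held 200 CPM or more of the liver gene Alb. Total counts ran from 202270 to 1186973 in libraries labelled PD16 and from 495369 to 1627114 in those labelled GD21. In such bulk tissue, fewer chromaffin cells and less RNA per cell cannot be told apart.

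The sequences before 4 of these genes are shown because Th, Chgb, Scg2 and Dbh were the 4 whose levels followed the other chromaffin genes most closely within groups (below). RefSeq (build GRCr8) gave a promoter window, 250 bases before to 50 after the start, for 7 of the 10 genes: Th, Ddc, Dbh, Chgb, Scg2, Npy and Phox2a. Ddc had 3 windows and the others 1 each. A motif was counted for a gene if any of its windows held it, while the shares given below are of single windows. Searched on both strands, the full cAMP response element TGACGTCA lay in Th at positions -69 to -62 from the start and in Scg2 at -123 to -116, and 1.83% of all 33469 promoter windows hold it. Its shorter core TGACG, which overlaps those matches, also lay at 2 places in Dbh, with 21.2% of windows holding it. GGGCGG, the core bound by Sp1, lay in Chgb, Npy and Phox2a (33.1% of windows), and the AP-2 motif GCCNNNGGC in Th and Phox2a (15.1%). The Egr1 motif GCGGGGGCG, the glucocorticoid response core AGAACA and the homeodomain core TAATTA lay in no window of the 7 genes, against 2.73%, 20.7% and 5.36% of all windows. The windows are printed in the direction of the gene, and capitals mark TGACGTCA and the AP-2 motif in Th, TGACGTCA in Scg2, the core TGACG on the opposite strand (read as CGTCA) in Dbh, and GGGCGG on the opposite strand (read as CCGCCC) in Chgb. A match is a run of letters and says nothing of binding.
Th (GRCr8, chr1:207508169-207508468, minus strand): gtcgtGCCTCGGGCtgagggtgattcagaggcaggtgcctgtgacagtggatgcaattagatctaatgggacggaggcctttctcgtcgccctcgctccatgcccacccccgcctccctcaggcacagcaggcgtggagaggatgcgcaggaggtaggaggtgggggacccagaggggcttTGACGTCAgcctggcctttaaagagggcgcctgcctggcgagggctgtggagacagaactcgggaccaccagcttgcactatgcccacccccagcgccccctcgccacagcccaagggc
Scg2 (GRCr8, chr9:88256817-88257116, minus strand): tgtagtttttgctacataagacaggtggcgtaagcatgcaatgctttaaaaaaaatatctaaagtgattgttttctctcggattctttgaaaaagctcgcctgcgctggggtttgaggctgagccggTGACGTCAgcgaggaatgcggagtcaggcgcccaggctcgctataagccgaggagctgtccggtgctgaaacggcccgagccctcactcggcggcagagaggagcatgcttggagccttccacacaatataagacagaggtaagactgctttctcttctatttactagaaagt
Dbh (GRCr8, chr3:30886078-30886377, plus strand): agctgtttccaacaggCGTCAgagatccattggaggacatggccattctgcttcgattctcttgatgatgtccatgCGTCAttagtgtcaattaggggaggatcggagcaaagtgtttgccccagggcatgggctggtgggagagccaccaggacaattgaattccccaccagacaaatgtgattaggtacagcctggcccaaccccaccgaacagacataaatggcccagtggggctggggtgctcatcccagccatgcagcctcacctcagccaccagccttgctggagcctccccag
Chgb (GRCr8, chr3:140496462-140496761, plus strand): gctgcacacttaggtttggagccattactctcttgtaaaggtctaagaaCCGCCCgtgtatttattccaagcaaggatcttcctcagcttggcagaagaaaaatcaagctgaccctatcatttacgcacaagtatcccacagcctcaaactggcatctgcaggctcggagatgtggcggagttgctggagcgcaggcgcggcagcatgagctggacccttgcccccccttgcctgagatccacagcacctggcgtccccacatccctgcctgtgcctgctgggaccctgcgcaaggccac

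**Figure D1:**
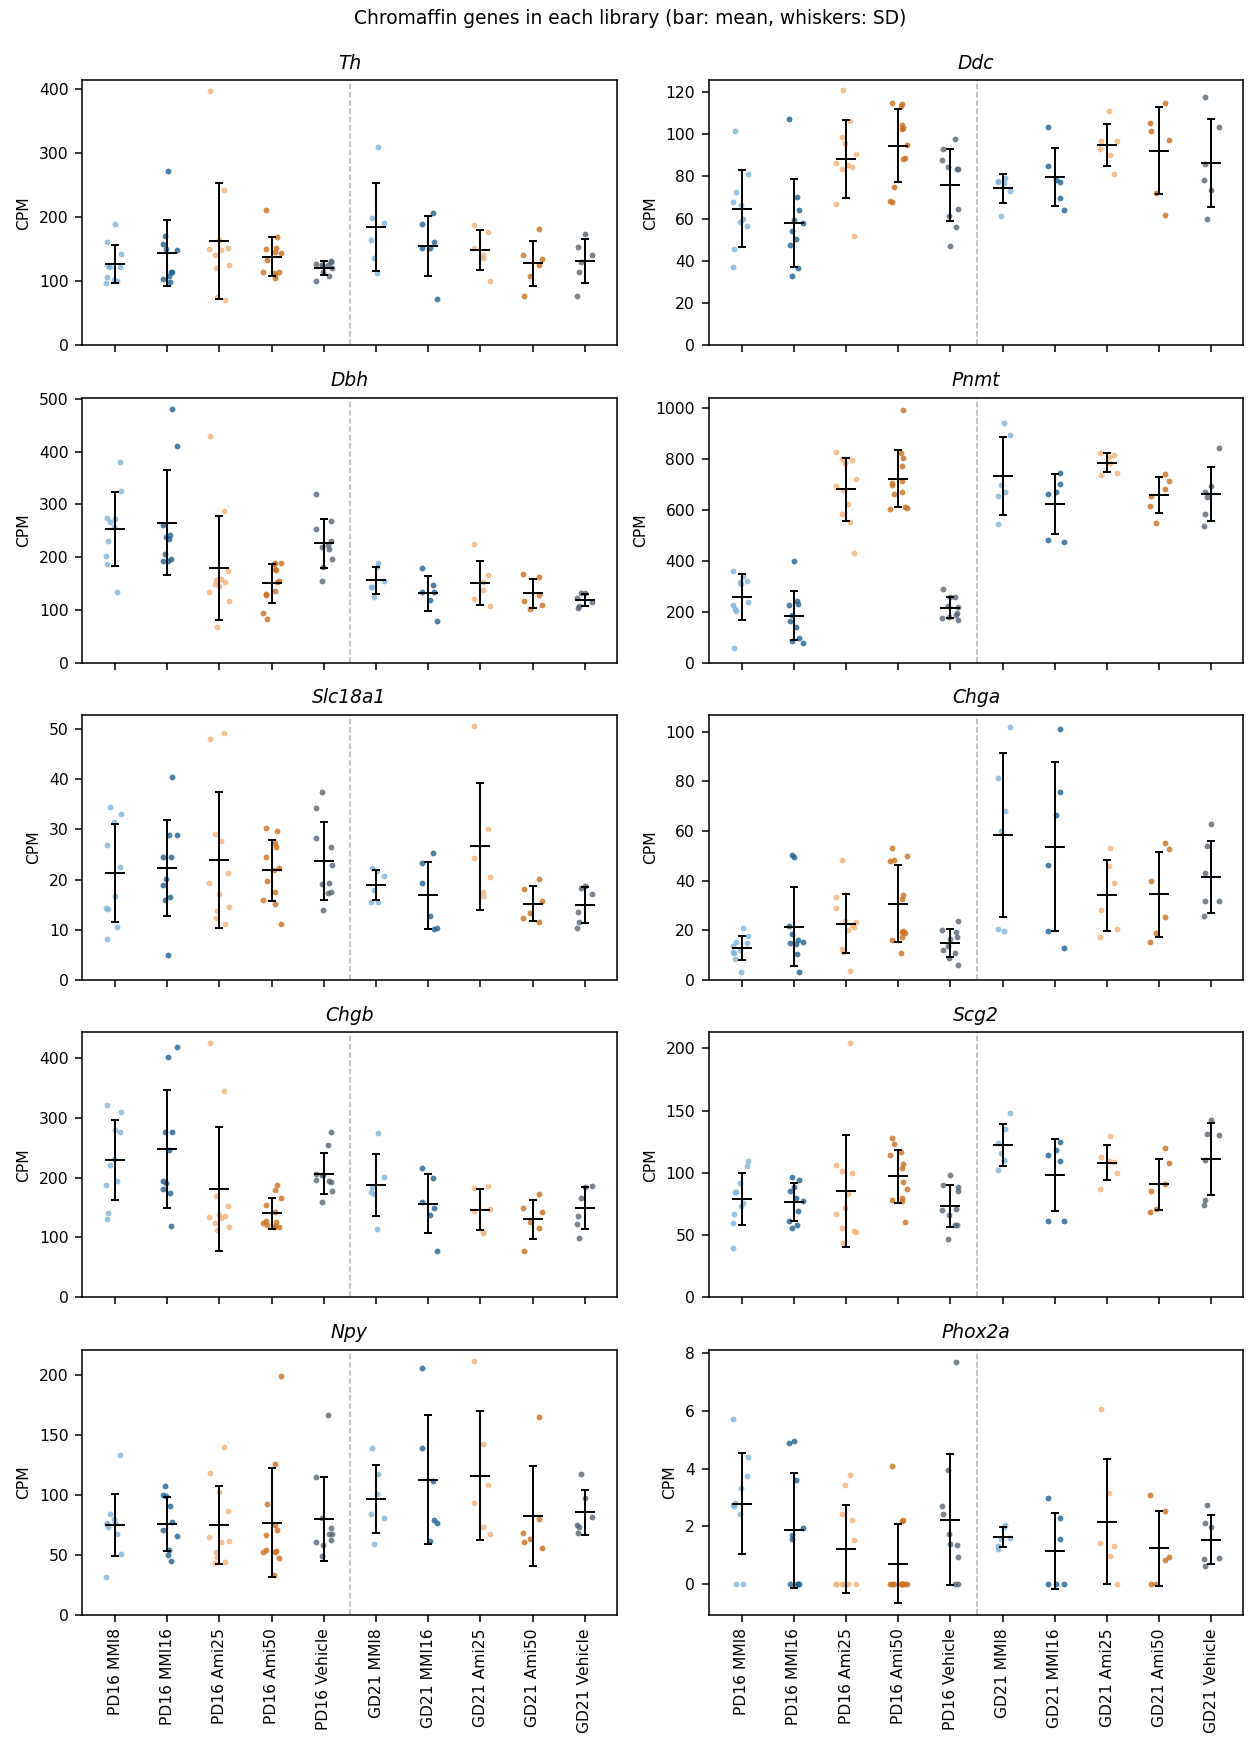
Each panel plots 1 chromaffin gene in CPM on the vertical axis, linear and with its own range, against the 10 groups, with a dot per library, a bar at the group mean and whiskers for the SD. Pnmt splits the groups, with means from 185 to 259 CPM in PD16 MMI8, PD16 MMI16 and PD16 Vehicle and from 623 to 786 CPM in the other 7.

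Pnmt, the enzyme that forms adrenaline, separated the groups more sharply than its neighbours in the pathway. Its lowest, median and highest values were 431, 695 and 827 CPM in PD16 Ami25 and 602, 702 and 994.5 CPM in PD16 Ami50, against 167, 208 and 288 CPM in PD16 Vehicle. In PD16 MMI8 they were 59.3, 273 and 359 CPM, and in PD16 MMI16 77.0, 175 and 400.4 CPM. Every PD16 amitrole library therefore lay above every PD16 vehicle and methimazole library. In the GD21 groups Pnmt averaged 734 ± 153 CPM in MMI8, 623 ± 116 in MMI16, 786 ± 36.1 in Ami25, 659 ± 70.4 in Ami50 and 663 ± 106 in Vehicle (SD, n = 6 each), and these ranges overlapped. By mean, the order from the top was GD21 Ami25, GD21 MMI8, PD16 Ami50, PD16 Ami25, GD21 Vehicle, GD21 Ami50, GD21 MMI16, PD16 MMI8, PD16 Vehicle and PD16 MMI16. Neighbours in that order overlapped in every case but GD21 MMI16 and PD16 MMI8, where all GD21 MMI16 libraries were higher.

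Against PD16 Vehicle, Pnmt rose 3.55-fold in PD16 Ami50 (log2 fold change 1.83, SE 0.18, edgeR adjusted p = 1.42e-12) and 3.29-fold in PD16 Ami25 (1.72, SE 0.18, adjusted p = 1.55e-11). The fold changes are on library sizes scaled by edgeR and can differ slightly from ratios of mean CPM. In PD16 Ami50 without the 8 libraries low in Eif2s3y, the Pnmt log2 fold change was 1.75. Neither methimazole dose passed the test, with log2 fold changes of 0.24 (SE 0.19, adjusted p = 0.65) in PD16 MMI8 and -0.32 (SE 0.19, adjusted p = 0.482) in PD16 MMI16. PD16 MMI16 and PD16 MMI8 differed by -0.56 (SE 0.19, adjusted p = 0.159). The difference passed the test as -0.70 (adjusted p = 0.0323) without PD16 MMI16 library 10, the shallowest of all, and as -0.68 (adjusted p = 0.0116) without PD16 MMI8 library 66. Library 10 held the highest Pnmt value of its group and library 66 the lowest of its own, so leaving out either widens the difference by itself. Both were picked by name after the data were seen. Library 10 is also the only library that the alternative on depth (totals under 0.5 of the stage median) leaves out. No dose difference is read from these values. The adrenal cortex genes moved beside Pnmt: their sum averaged 41144 CPM in PD16 Ami50 and 37969 CPM in PD16 Ami25, against 15403 CPM in PD16 Vehicle, and 5 of 5 tested members rose in PD16 Ami50 (26.4% of all genes rose), with Cyp11b2 at 2.20, Cyp21a1 at 1.77 and Cyp11a1 at 1.68 (log2 fold changes). The part of that shift in the Pnmt result was not tested.

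Dbh, which forms the substrate of Pnmt, went the other way in PD16 Ami50. Its lowest, median and highest values were 83.1, 154 and 189.8 CPM there and 68.5, 153 and 429.9 CPM in PD16 Ami25, against 155, 221 and 319 CPM in PD16 Vehicle. The groups overlapped, and 2 PD16 Ami25 libraries lay above 250 CPM while the rest were lower. Dbh fell 1.45-fold in PD16 Ami50 (log2 fold change -0.54, SE 0.19, edgeR adjusted p = 0.0144). Without the 8 libraries low in Eif2s3y the value was -0.51 (adjusted p = 0.145), so the call was lost there. In PD16 Ami25 the log2 fold change was -0.31 (SE 0.19, adjusted p = 0.166), in PD16 MMI8 0.12 (SE 0.19) and in PD16 MMI16 0.17 (SE 0.19), none of which passed. In the GD21 groups Dbh averaged from 119 ± 11.8 CPM in Vehicle to 156 ± 24.8 CPM in MMI8 (SD, n = 6 each).

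Th and Ddc, the first steps of the pathway, changed 1.30- to 1.38-fold where they were called against PD16 Vehicle. Th averaged 162 ± 90.4 CPM in PD16 Ami25 and 139 ± 30.8 CPM in PD16 Ami50, against 121 ± 10.4 CPM in PD16 Vehicle (SDs). It rose 1.38-fold in PD16 Ami25 (log2 fold change 0.46, SE 0.18, edgeR adjusted p = 0.0278), where the groups overlapped and a single library at 397 CPM lay above the rest. That call was lost when only the compared libraries were fitted (adjusted p = 0.0697), with no filter (0.0947) and without the libraries low in Eif2s3y (0.0571). In the first and the last of these Chga was called instead (adjusted p = 0.0219 and 0.0487). Ddc averaged 94.6 ± 17.1 CPM in PD16 Ami50 and 58.0 ± 20.8 CPM in PD16 MMI16, against 75.8 ± 17.2 CPM in PD16 Vehicle (SD, n = 12, 10 and 10), and all 3 ranges overlapped. It rose 1.30-fold in PD16 Ami50 (log2 fold change 0.38, SE 0.14, adjusted p = 0.0163) and fell 1.38-fold in PD16 MMI16 (-0.46, SE 0.15, adjusted p = 0.0433). Neither call held without the libraries low in Eif2s3y, with adjusted p = 0.395 in PD16 Ami50 and 0.0735 in PD16 MMI16. The fall in PD16 MMI16 was also lost without the Alb-high library (-0.41, adjusted p = 0.103) and with PD16 MMI8 library 66 left out of the shared fit (-0.45, adjusted p = 0.0517). With bins of the labels' library numbers as a covariate, the fall was lost too (-0.45, adjusted p = 0.063). In all it was lost in 6 of 13 alternative settings.

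The granins did not move together. Chga, the acidic granin of the granule core, had lowest, median and highest values of 11.0, 26.2 and 53.0 CPM in PD16 Ami50, against 5.87, 15.2 and 23.7 CPM in PD16 Vehicle. The ranges overlapped, and Chga rested on 3 to 45 counts a library in PD16 Ami50 and 4 to 25 in PD16 Vehicle. It rose 2.28-fold (log2 fold change 1.19, SE 0.31, edgeR adjusted p = 0.000876), and without the libraries low in Eif2s3y the log2 fold change was 1.70. Chga did not pass in PD16 Ami25 (0.72, SE 0.32, adjusted p = 0.0556). Scg2, the precursor of secretoneurin, averaged 97.4 ± 21.3 CPM in PD16 Ami50 (SD, n = 12), against 73.4 ± 16.7 CPM in PD16 Vehicle (n = 10), and rose 1.43-fold (0.51, SE 0.17, adjusted p = 0.01). Chgb, by contrast, averaged 140.2 ± 25.6 CPM in PD16 Ami50 and 206 ± 34.3 CPM in PD16 Vehicle, with overlapping ranges, and fell 1.38-fold (-0.47, SE 0.19, adjusted p = 0.0359). Without the libraries low in Eif2s3y Chgb was at -0.31 (adjusted p = 0.41), and without the Alb-high libraries at -0.47 (adjusted p = 0.062).

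Slc18a1, Npy and Phox2a gave no call against vehicle at either labelled stage. Slc18a1 averaged 21.8 ± 6.07 CPM in PD16 Ami50 and 23.6 ± 7.76 CPM in PD16 Vehicle, with a log2 fold change of -0.03 (SE 0.23). Npy averaged 76.8 ± 45.6 CPM in PD16 Ami50 and 79.9 ± 35.3 CPM in PD16 Vehicle, with 0.07 (SE 0.24). Phox2a held 86 counts in all and none in 29 of 83 libraries, and it failed the filter on low counts in every fit. A count of 0 in the shallowest PD16 Ami50 library allows up to 10.96 CPM (3 counts, for counting error only), so Phox2a was too low to compare at this depth.

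**Figure D2:**
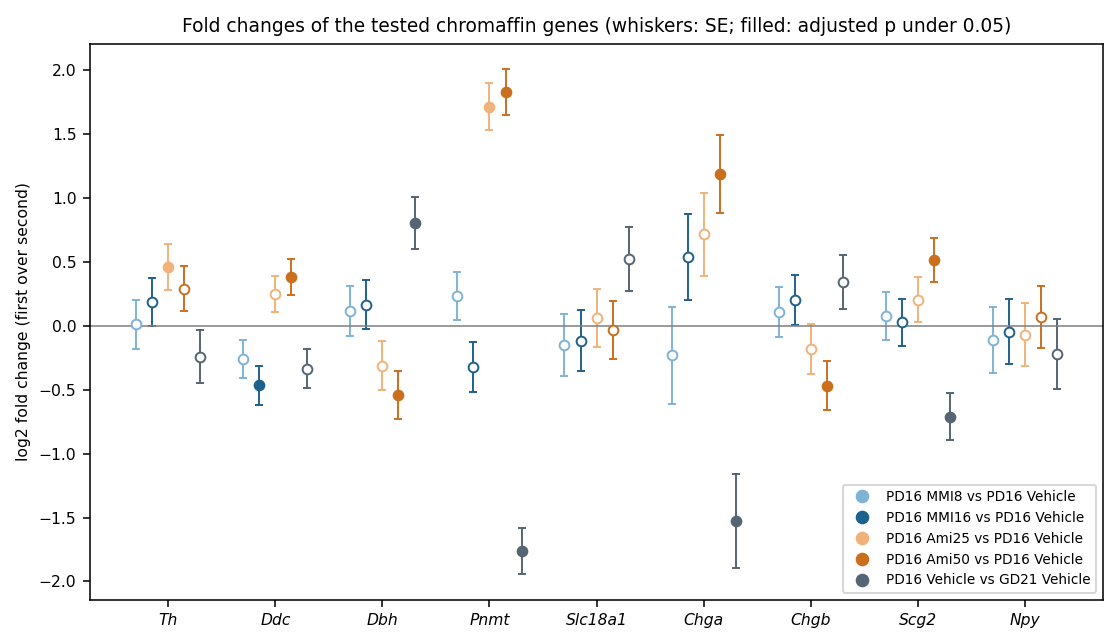
Log2 fold changes from edgeR are on the vertical axis for the 9 tested chromaffin genes, with whiskers for the SE, filled circles where the adjusted p is under 0.05 and open circles elsewhere. Pnmt stands at 1.83 and 1.72 in PD16 Ami50 and PD16 Ami25 against PD16 Vehicle and at -1.76 in PD16 Vehicle against GD21 Vehicle, while in the 5 comparisons plotted, the 4 PD16 treatments against PD16 Vehicle and PD16 Vehicle against GD21 Vehicle, Npy and Slc18a1 have open circles.

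Counted over the set, 6 of the 9 tested genes were called in PD16 Ami50 against PD16 Vehicle, where 52.4% of all 4906 genes tested were called. Of the 6, 4 were higher (26.4% of all genes) and 2 lower (26% of all genes). In PD16 Ami25 the count was 2 of 9, Pnmt and Th, both higher, where 54.4% of all genes were called and 27.5% were called higher. PD16 MMI16 gave 1 of 9, the fall of Ddc (7.79% of all genes, 7.07% lower), and PD16 MMI8 gave 0 of 9 by edgeR, 0 at an unadjusted p under 0.05 and 0 by DESeq2 (8.11% of all genes). With that many genes called, the counts in the amitrole groups are not particular to the chromaffin genes. The median log2 fold change over the 9 genes was 0.29 in PD16 Ami50, 0.21 in PD16 Ami25, 0.03 in PD16 MMI16 and 0.01 in PD16 MMI8, against 0.02, 0.01, 0.07 and 0.01 over all genes tested. All 4 comparisons share the PD16 Vehicle libraries.

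Between the upper doses, PD16 Ami50 differed from PD16 MMI16 in 5 of the 9 genes (47.1% of all genes tested). Pnmt was 4.44-fold higher (log2 fold change 2.15, SE 0.19, edgeR adjusted p = 8.29e-14) and Ddc 1.80-fold higher (0.85, SE 0.15, adjusted p = 2.38e-06), with Scg2 at 0.48 (SE 0.18, adjusted p = 0.0197). Dbh was 1.63-fold lower (-0.71, SE 0.19, adjusted p = 0.0019), with every PD16 Ami50 library below every PD16 MMI16 library, and Chgb was 1.59-fold lower (-0.67, SE 0.19, adjusted p = 0.00326). Without the libraries low in Eif2s3y, Dbh was at -0.68 (adjusted p = 0.0584) and Chgb at -0.51 (adjusted p = 0.163), while Chga passed at 1.17 (adjusted p = 0.00642) against 0.65 (adjusted p = 0.0706) with them. The doses of amitrole gave 0 of 9 calls in edgeR for PD16 Ami50 against PD16 Ami25, 0 at an unadjusted p under 0.05 and 0 in DESeq2 (0% of all genes tested). The doses of methimazole gave 0 of 9 in edgeR, where 1.96% of all genes tested were called, and 0 in DESeq2. At an unadjusted p under 0.05 there were 2 (Pnmt and Chga). The share of all genes at that unadjusted limit was not taken, so these 2 are not read as a result.

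In the GD21 groups no chromaffin gene passed the test at either dose of either compound, and edgeR called 0% of the 6236 genes tested in each of the 4 comparisons. At an unadjusted p under 0.05 there were 2 of 9 in GD21 MMI8, 0 in GD21 MMI16, 3 in GD21 Ami25 and 0 in GD21 Ami50, and DESeq2 called 0 of 9 in each. The share of all genes at that unadjusted limit was not taken, so those counts are not read as a result about these genes. The 2 in GD21 MMI8 were Dbh (log2 fold change 0.41, SE 0.15, edgeR adjusted p = 0.999) and Th (0.52, SE 0.23, adjusted p = 0.999). Those in GD21 Ami25 were Slc18a1 (0.79, SE 0.25, adjusted p = 0.47), Dbh (0.35, SE 0.15, adjusted p = 0.548) and Pnmt (0.26, SE 0.13, adjusted p = 0.554). In GD21 Ami50, Pnmt had a log2 fold change of 0.01 (SE 0.13) and Chga of -0.20 (SE 0.43).

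Set against GD21, the PD16 vehicle and methimazole libraries had less Pnmt, Chga and Scg2 and more Dbh. Pnmt averaged 215 ± 40.9 CPM in PD16 Vehicle (SD, n = 10), against 663 ± 106 CPM in GD21 Vehicle (n = 6), without overlap, a 3.39-fold fall (log2 fold change -1.76, SE 0.18, edgeR adjusted p = 4.69e-13). Chga averaged 14.9 ± 5.58 CPM and 41.5 ± 14.5 CPM in these groups, also without overlap (-1.53, SE 0.37, adjusted p = 0.000409), and Scg2 was at -0.71 (SE 0.18, adjusted p = 0.000798). Dbh averaged 226 ± 46.4 CPM in PD16 Vehicle and 119 ± 11.8 CPM in GD21 Vehicle, without overlap, a 1.75-fold rise (0.81, SE 0.20, adjusted p = 0.000628). These were 4 of the 9 tested genes (44.1% of all 6287 genes tested), 1 higher (22.8%) and 3 lower (21.2%). Of 6 tested adrenal cortex genes 4 were lower too (21.2% of all genes), and their part in the fall of Pnmt was not tested. Th (-0.24, SE 0.21), Ddc (-0.34, SE 0.15), Chgb (0.35, SE 0.21), Slc18a1 (0.52, SE 0.25) and Npy (-0.22, SE 0.27) did not pass.

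The same comparison within methimazole gave 6 of 9 calls for PD16 MMI8 against GD21 MMI8 (47.1% of all genes) and 6 of 9 for PD16 MMI16 against GD21 MMI16 (45.4%). Pnmt fell 3.26-fold in PD16 MMI8 (log2 fold change -1.71, SE 0.18, edgeR adjusted p = 1.45e-12) and 4.05-fold in PD16 MMI16 (-2.02, SE 0.19, adjusted p = 3.87e-15), with no overlap in either. Chga fell to 12.9 ± 4.94 CPM in PD16 MMI8, against 58.6 ± 33.0 CPM in GD21 MMI8 (-2.35, SE 0.39, adjusted p = 5.31e-07), and to 21.5 ± 15.8 CPM in PD16 MMI16, against 53.8 ± 34.0 CPM in GD21 MMI16 (-1.47, SE 0.36, adjusted p = 0.000446). Dbh rose by 0.81 (SE 0.20, adjusted p = 0.000691) in PD16 MMI16 and by 0.50 (SE 0.20, adjusted p = 0.0345) in PD16 MMI8, and Scg2 and Ddc fell in both. Th fell in PD16 MMI8 (-0.77, SE 0.21, adjusted p = 0.00141) and Npy in PD16 MMI16 (-0.66, SE 0.28, adjusted p = 0.044). Without the Alb-high libraries, 3 of the PD16 MMI8 calls remained past the threshold and Th (adjusted p = 0.0886), Ddc (0.126) and Dbh (0.0624) did not. The Ddc call in PD16 MMI8 was also lost without PD16 MMI8 library 66 (adjusted p = 0.186). The Npy call was lost without PD16 MMI16 library 10 (0.071) or with PD16 MMI8 library 66 left out of the shared fit (0.069), and in 6 of 13 alternative settings in all. Leaving out library 10 is counted there under both settings that drop it, by name and by depth.

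The amitrole libraries of the 2 labelled stages differed little in these genes. For PD16 Ami50 against GD21 Ami50 edgeR called 0 of 9, with 0 at an unadjusted p under 0.05 and 0 by DESeq2 (7.57% of all genes tested). Pnmt averaged 723 ± 113 CPM in PD16 Ami50 (SD, n = 12), against 659 ± 70.4 CPM in GD21 Ami50 (n = 6; log2 fold change 0.03, SE 0.18). For PD16 Ami25 against GD21 Ami25 Scg2 alone was called (-0.54, SE 0.18, adjusted p = 0.0438), 1 of 9 against 10.4% of all genes tested. That call was lost with PD16 MMI8 library 66 left out of the shared fit (adjusted p = 0.062), and in 6 of 13 alternative settings in all.

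Tested directly, the amitrole difference from vehicle was not the same at the 2 labelled stages for several of these genes. The difference in log2 fold change, PD16 minus GD21, was 1.79 for Pnmt at 50 mg/kg per day (SE 0.26, edgeR adjusted p = 3.15e-08) and 1.41 at 25 mg/kg per day (SE 0.26, adjusted p = 9.61e-06). At 50 mg/kg per day it was also called for Chga (1.35, SE 0.51, adjusted p = 0.0337), Scg2 (0.73, SE 0.26, adjusted p = 0.0213) and Dbh (-0.73, SE 0.28, adjusted p = 0.0361), 4 of 9 against 31.1% of all genes tested. At 25 mg/kg per day Dbh was the other call (-0.72, SE 0.28, adjusted p = 0.0432), 2 of 9 against 29.2%, and it was lost in 11 of 13 alternative settings, DESeq2 among them. Without the Alb-high libraries, Chga (adjusted p = 0.103) and Dbh (0.0951 at 50 and 0.112 at 25 mg/kg per day) were not called, and Dbh at 25 mg/kg per day was also lost without PD16 MMI8 library 66 (0.0541). Without the libraries low in Eif2s3y, Dbh at 50 mg/kg per day was at -0.68 (adjusted p = 0.125). For methimazole the same difference gave 0 of 9 at 8 mg/kg per day (4.31% of all genes) and 0 of 9 at 16 mg/kg per day (4.77%) in edgeR, 0 and 0 at an unadjusted p under 0.05, and 0 and 0 in DESeq2.

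**Figure D3:**
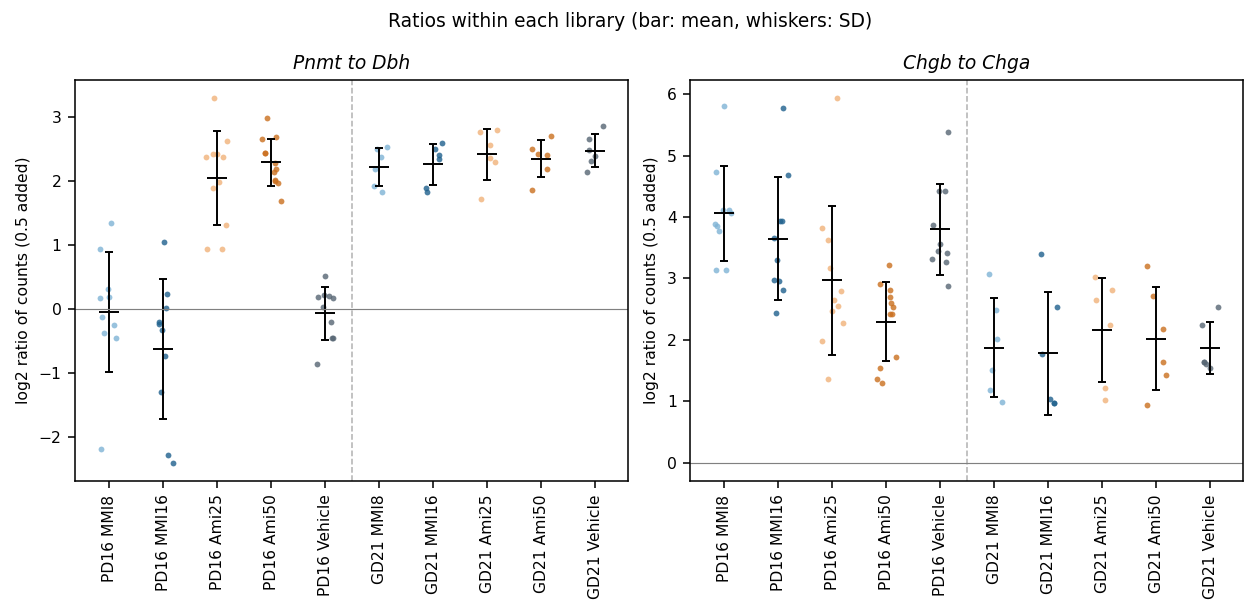
Log2 ratios of counts within a library, with 0.5 added to each count, are on the vertical axes for Pnmt to Dbh and for Chgb to Chga, with a dot per library, a bar at the mean and whiskers for the SD. Pnmt to Dbh lies between 0.94 and 3.29 in every PD16 amitrole library and between -0.85 and 0.51 in PD16 Vehicle.

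Ratios within a library do not depend on its total and gave the same split. The log2 ratio of Pnmt to Dbh averaged 2.05 ± 0.73 in PD16 Ami25 (SD, n = 11) and 2.29 ± 0.37 in PD16 Ami50 (n = 12), against -0.07 ± 0.42 in PD16 Vehicle (n = 10). No amitrole library overlapped the vehicle libraries (permutation test, 2-sided, adjusted p = 0.000693 and 0.00052 over 52 tests, where the smallest unadjusted p the resampling can give is 2e-05). The ratio was -0.05 ± 0.94 in PD16 MMI8 and -0.62 ± 1.09 in PD16 MMI16 (n = 10 each), and the same test against PD16 Vehicle did not pass (unadjusted p = 0.957 and 0.162). In the GD21 groups it averaged from 2.22 ± 0.30 in MMI8 to 2.47 ± 0.26 in Vehicle (n = 6 each), and PD16 MMI8, PD16 MMI16 and PD16 Vehicle each lay below their GD21 group without overlap (exact permutation test, adjusted p = 0.00144 in each). Th to Dbh averaged -0.15 ± 0.36 in PD16 Ami25 and -0.10 ± 0.49 in PD16 Ami50, against -0.88 ± 0.31 in PD16 Vehicle (permutation test, adjusted p = 0.00156 and 0.00144), with overlap. Without the libraries low in Eif2s3y the Th to Dbh difference of PD16 Ami50 was 0.83 (adjusted p = 0.0611), against 0.78 with them. Chgb to Chga averaged 2.29 ± 0.64 in PD16 Ami50 and 3.8 ± 0.75 in PD16 Vehicle (adjusted p = 0.00052), and Npy to Chga 1.29 ± 0.79 and 2.36 ± 0.82 (adjusted p = 0.0162).

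**Figure D4:**
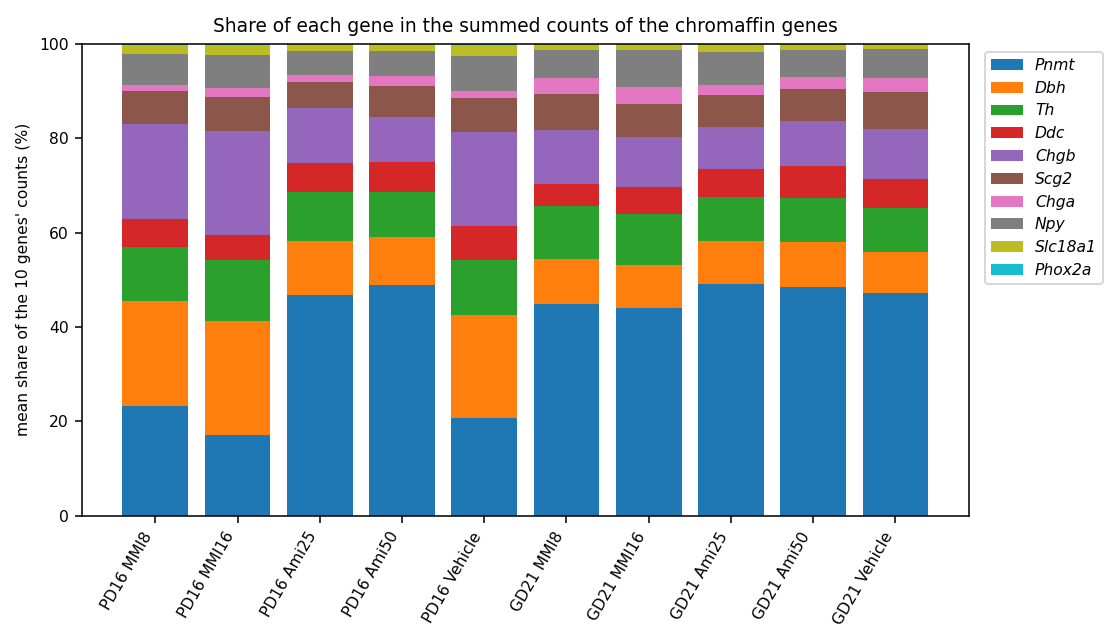
Stacked bars give each gene's mean share, in percent, of the summed counts of the 10 chromaffin genes in a library, by group. Pnmt takes 46.8% and 49.0% in PD16 Ami25 and PD16 Ami50, against 20.8% in PD16 Vehicle.

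The makeup of the chromaffin counts followed from these changes. Of the summed counts of the 10 genes, Pnmt took 46.8 ± 9.55% in PD16 Ami25 and 49.0 ± 3.93% in PD16 Ami50, against 20.8 ± 3.64% in PD16 Vehicle (SD, n = 11, 12 and 10), and between 44.1% and 49.1% on average in the GD21 groups. Dbh took 11.5% in PD16 Ami25 and 10.2% in PD16 Ami50, against 21.7% in PD16 Vehicle, and Chgb 11.5% and 9.49%, against 19.9%. Counts at the 3′ end do not compare levels between genes, so shares of different genes are not set against each other. A share also falls when another gene in the sum rises, as Pnmt did. The lower Dbh and Chgb shares are therefore not read as falls of these genes, neither of which was called in PD16 Ami25 against PD16 Vehicle. Without Pnmt, the other 9 genes summed to 818 ± 350 CPM in PD16 Ami25, 751 ± 96.5 CPM in PD16 Ami50 and 823 ± 95 CPM in PD16 Vehicle, and to between 706 and 901 CPM on average in the GD21 groups.

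Genes around the pathway were counted from lists fixed by name. Their counts stand beside a background of 52.4% of all genes called in PD16 Ami50 against PD16 Vehicle and 44.1% in PD16 Vehicle against GD21 Vehicle, and none is read as particular to a list. Of the 6 genes that supply tetrahydrobiopterin, the cofactor of Th, 3 were tested in the PD16 groups, and in PD16 Ami50 against PD16 Vehicle Pts rose (54.1 against 24.8 CPM, log2 fold change 1.18, SE 0.16, edgeR adjusted p = 5.08e-09) while Qdpr and Pcbd1 were not called. In PD16 Vehicle against GD21 Vehicle 2 of 4 tested fell, Pts (-0.90) and Pcbd1 (-1.13, adjusted p = 0.0465). Of 6 genes of catecholamine uptake and breakdown, 3 were tested and Maoa, a monoamine oxidase, fell in PD16 Ami50 (-0.60, SE 0.21, adjusted p = 0.0126), while Cyb561, which passes electrons into the granule for Dbh, rose in PD16 Vehicle against GD21 Vehicle (0.66, adjusted p = 0.00604), as 1 of 4 tested. Of 11 other genes of granule cargo and processing, 3 were tested in PD16 Ami50: Nucb2, the nesfatin precursor, rose (0.50, adjusted p = 0.00912) and Gal, the galanin precursor, fell (18.2 against 38.5 CPM, -0.88, SE 0.27, adjusted p = 0.0045). In PD16 Vehicle against GD21 Vehicle 7 of the 11 were tested, and Gal rose (1.78, adjusted p = 0.000108) and Cpe, a carboxypeptidase that trims prohormones, fell (-1.24, adjusted p = 0.0173). Of 12 genes of regulated exocytosis the single one tested in the PD16 groups, Rab3a, rose in PD16 Ami50 (0.47, SE 0.19, adjusted p = 0.037), and Snap25 was 1 of 4 called in PD16 Vehicle against GD21 Vehicle (1.63, adjusted p = 0.000257). None of the 8 chromaffin receptor and channel genes passed the filter.

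Among regulators, Gata2, a lineage transcription factor, and Sp1, a factor known to act on Pnmt, were lower in PD16 Ami50 and PD16 MMI16 than in PD16 Vehicle. Of 12 sympathoadrenal transcription factors, 2 were tested, and Gata2 averaged 7.70 CPM in PD16 Ami50 and 15.1 CPM in PD16 MMI16, against 49.1 CPM in PD16 Vehicle. At the lower doses the Gata2 mean was also under that of PD16 Vehicle, at 7.66 CPM in PD16 Ami25 and 22.4 CPM in PD16 MMI8. In the amitrole groups Gata2 rests on few counts a library. There 3 counts equal 10.96 CPM in the shallowest PD16 Ami50 library and 11.4 CPM in the shallowest PD16 Ami25 library. Gata2 fell in PD16 Ami50 (log2 fold change -2.48, SE 0.25, edgeR adjusted p = 6.56e-13) and in PD16 MMI16 (-1.73, SE 0.24, adjusted p = 4.39e-08). Sox4 fell in PD16 Ami50 (-1.31, SE 0.26, adjusted p = 1.54e-05) and was at -0.63 (adjusted p = 0.154) in PD16 MMI16, and in PD16 Vehicle against GD21 Vehicle both rose (Gata2 0.72, adjusted p = 0.0182, and Sox4 0.86, adjusted p = 0.0258). Of 5 genes known to regulate Pnmt, only Sp1 was tested in the PD16 groups, and it fell in PD16 Ami50 (27.3 against 138.9 CPM, -2.32, SE 0.18, adjusted p = 6.21e-17) and in PD16 MMI16 (46.4 CPM, -1.71, SE 0.19, adjusted p = 1.4e-11). Sp1 averaged 34.0 CPM in PD16 Ami25 and 53.5 CPM in PD16 MMI8, so its mean was lower than in PD16 Vehicle in every treated PD16 group. Of all genes tested, 26% were called lower in PD16 Ami50 and 7.07% in PD16 MMI16. The glucocorticoid receptor gene Nr3c1, tested over all 10 groups, was not called in PD16 Vehicle against GD21 Vehicle (0.33, SE 0.33, adjusted p = 0.44). None of the listed lineage factors and Pnmt regulators were called in the GD21 groups, where edgeR called no gene.

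**Figure D5:**
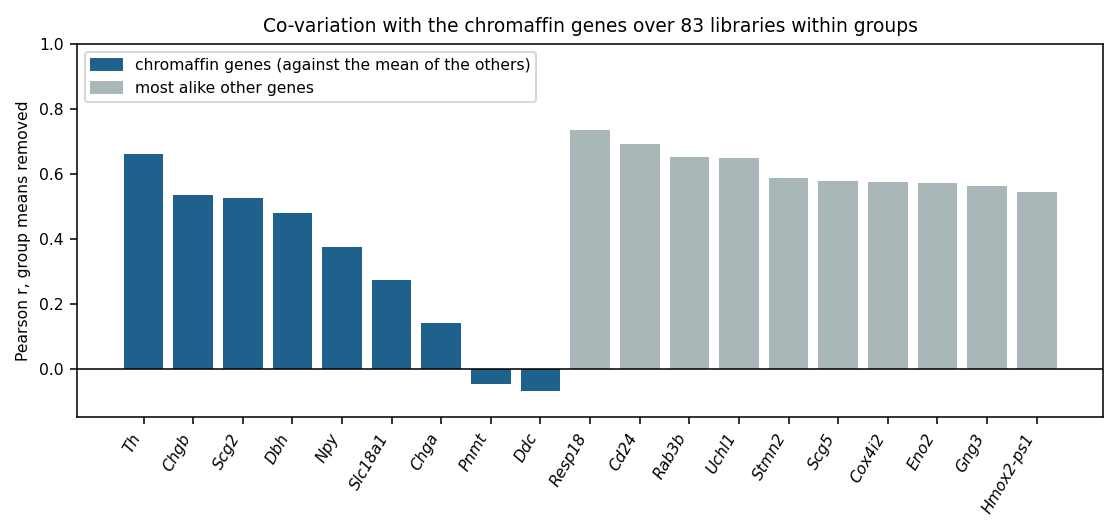
Bars give Pearson r over 83 libraries, after group means were removed from log2 CPM, between each gene and the mean of the chromaffin genes (of the other 8, for a chromaffin gene). Th reaches 0.66 and Resp18 0.74, while Pnmt and Ddc lie near 0 at -0.05 and -0.07.

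Within groups, the chromaffin genes fell into those that moved with the rest and those that did not. With group means removed, the correlation of each gene with the mean of the other 8 tested genes over the 83 libraries was 0.66 for Th, 0.54 for Chgb, 0.53 for Scg2, 0.48 for Dbh, 0.38 for Npy and 0.27 for Slc18a1, but 0.14 for Chga, -0.05 for Pnmt and -0.07 for Ddc. The closest pair was Th and Chgb at 0.70, then Dbh and Chgb at 0.57 and Dbh and Slc18a1 at 0.56. The 10 other genes most like the set were Resp18 (0.74), Cd24 (0.69), Rab3b (0.65), Uchl1 (0.65), Stmn2 (0.59), Scg5 (0.58), Cox4i2 (0.58), Eno2 (0.57), Gng3 (0.56) and Hmox2-ps1 (0.54). Npy had a correlation of 0.82 with the mean of 7 neuron genes, against 0.42 for Dbh and 0.35 for Th, and Pnmt had 0.36 with 6 adrenal cortex genes, against -0.37 for Chgb. With the mean of 5 liver genes Npy had 0.41, while the other 8 lay between -0.26 and 0.07. These correlations with lists were added after the data were seen. The points share their library and its depth, and the values describe these libraries without a test. The neuron genes also differed between groups: their sum averaged 173 CPM in PD16 Ami25 and 229 CPM in PD16 Ami50, against 368 CPM in PD16 Vehicle. Of 4 tested, 2 fell in PD16 Ami50 (26% of all genes fell), Nefm (-1.92, adjusted p = 8.05e-08) and Stmn2 (-0.70, adjusted p = 0.0408), and in PD16 Vehicle against GD21 Vehicle 3 of 7 rose (22.8% of all genes rose), Nefm (1.84), Elavl4 (1.77) and Gap43 (1.18). Their part in the falls of Dbh and Chgb was not tested. Markers of Schwann cells summed to between 2.47 and 37.6 CPM. None passed the filter in the PD16 groups or in PD16 against GD21, and S100b, the single one tested in the GD21 groups, was not called there.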

How the data were processed

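The authors deposited 1 table of raw counts, with a row per gene symbol and a column per library. The submitters' processing notes name BWA 0.7.4.4 and the build rn6; how reads were assigned to genes, and whether strand was used, is not stated in them or in the labels. Overlapping genes and near-identical copies can share such counts. Libraries were grouped by labelled stage and treatment. Counts were tested with edgeR 4.0.16 in R 4.3.3 (TMM factors, filterByExpr with a minimum count of 10, robust quasi-likelihood F tests, Benjamini-Hochberg adjustment over all genes tested) in 3 fits: the PD16 groups (4906 genes), the GD21 groups (6236) and all 10 groups (6287, for PD16 against GD21 and for the difference between stages). The SE of a log2 fold change is its size over the square root of the F value. Calls are adjusted p under 0.05, and 9 of the 10 genes passed each filter. Means and SDs are of CPM. Counts were checked for copied libraries: the lowest chi-square per degree of freedom was 1.56 over 331 pairs of a group and 1.51 over 3072 pairs across groups. Within-library log2 ratios were compared by permutation (100000 resamples with 10 or more libraries a group, otherwise exact). The genes named from other lists were up to 3 called members, largest fold change first, in PD16 Ami50 or PD16 MMI16 against PD16 Vehicle or PD16 Vehicle against GD21 Vehicle, and Nr3c1, Qdpr and the marker genes were named beside them after their values were seen. The 10 genes, the lists, the tests and most alternatives were chosen with earlier results of these data known. The edgeR test was tested on simulated data. Promoter windows came from RefSeq (GRCr8), another build than that of the counts, and served for sequence only. Alternatives were DESeq2 1.42.0, other scalings, filters and sets of libraries, and a covariate made from the library numbers in the labels, called the number series. Its bins (up to 20, 21 to 40, 41 to 56, and 57 upward) were set for this purpose, and the labels name no such series or batch. Numbers up to 40 were all labelled PD16 and 41 to 56 all labelled GD21, so the bins are partly confounded with labelled stage. No library was left out of the 3 main fits.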

Additional observations from a re-analysis of the deposited data

Results flagged for a closer look

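In 9 of 112 sets of values examined (a gene or ratio in a group of 6 to 10 libraries), the highest or lowest library stood apart from the others by more than Dixon's limit at the 95% level, a gap that chance gives in about 1 in 20 sets. PD16 Ami25 (n = 11) and PD16 Ami50 (n = 12) were not examined, because the limits used end at 10 libraries. PD16 MMI16 library 10, the shallowest with 202270 counts, was highest in its group for Th (271.9 CPM, others 99.4 to 170.2) and Pnmt (400.4 CPM, others 77.0 to 244). PD16 MMI8 library 66 was lowest for Pnmt (59.3 CPM on 22 counts, others 205 to 359) and for the log2 ratio of Pnmt to Dbh (-2.19, others -0.45 to 1.34). Ddc was high in PD16 MMI16 library 31 (107 CPM) and low in GD21 MMI8 library 69 (61.0 CPM). Npy was high in PD16 MMI8 library 65 (133 CPM) and in GD21 Ami50 library 87 (165 CPM), where Alb was at 696 CPM. Phox2a was high in PD16 Vehicle library 21 (7.71 CPM, on 4 counts).

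Of 36 tests of whether a treatment difference from vehicle was itself different between the labelled stages, 6 passed, each as a log2 difference of PD16 minus GD21. The same tests called 31.1% of all genes for Ami50, 29.2% for Ami25, 4.31% for MMI8 and 4.77% for MMI16, so the count is not particular to the chromaffin genes. The 6 were Pnmt for Ami50 (1.79) and Ami25 (1.41), Chga for Ami50 (1.35), Scg2 for Ami50 (0.73), and Dbh for Ami50 (-0.73) and Ami25 (-0.72). All 6 rest on PD16 Vehicle and PD16 amitrole libraries, between which the embryonic globin share differed (14.9% in PD16 Vehicle, against 0.181% and 0.143% in PD16 Ami25 and PD16 Ami50). Its part in them was not tested.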

How the results depend on the processing

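No called value changed direction. Of 260 recomputed counts of called genes, 198 equalled the reported count and 229 were within 1.5 times of it, and 310 of 312 recomputed ratio differences stayed on their side of the threshold. For PD16 Ami25 against GD21 Ami25 the count of 1 became 2 in DESeq2 and without libraries low in Eif2s3y, and 0 with total counts (no TMM), no filter, the number series or without PD16 MMI8 library 66. The stage difference of Ami25 had 1 call in place of 2 in DESeq2, with its size factors, total counts, globins left out, no filter, a filter at 10 CPM, only the compared libraries, the number series, and without libraries high in Alb, low in Eif2s3y or PD16 MMI8 library 66. That of Ami50 had 2 in place of 4 with no filter and without Alb-high libraries. PD16 MMI16 against PD16 Vehicle had 0 in place of 1 with total counts, only the compared libraries, the number series, and without Alb-high, Eif2s3y-low libraries or PD16 MMI8 library 66. PD16 Ami25 against PD16 Vehicle had 1 in place of 2 with no filter (its count of 2 with only the compared libraries, or without Eif2s3y-low ones, held Chga in place of Th), PD16 MMI8 against GD21 MMI8 had 3 in place of 6 without Alb-high libraries, and PD16 Ami50 against PD16 Vehicle had 3 in place of 6 without Eif2s3y-low ones. PD16 MMI16 against PD16 MMI8 had 1 in place of 0 without the library whose total was under 0.5 of the median, without PD16 MMI8 library 66 or without PD16 MMI16 library 10. The library under 0.5 of the median is library 10 itself, so the first and last of these settings are the same analysis. Leaving out libraries 66 and 10 by name was chosen after seeing the data, and leaving out either widens the Pnmt difference by itself. The Npy to Chga difference of PD16 MMI8 against GD21 MMI8 was 1.46 (adjusted p = 0.141) without Alb-high libraries and that of Th to Dbh in PD16 Ami50 against PD16 Vehicle 0.83 (adjusted p = 0.0611) without Eif2s3y-low ones (permutation tests). Where libraries of a compared group are left out, fewer samples are compared. Some calls were lost with every compared library kept, such as Th in PD16 Ami25 without Eif2s3y-low libraries, all of which were PD16 Ami50. Leaving libraries out also changes the shared fit and the genes tested, with 5806 in place of 4906 in the PD16 groups without Eif2s3y-low libraries. The cause of the shifts was not tested. Total counts moved the median of all genes to between 0.15 and 0.21 (log2) in PD16 against GD21, to 0.11 in PD16 MMI16 against PD16 Vehicle and to -0.17 in PD16 Ami50 against PD16 MMI16, and ended the Ddc call in PD16 Ami50 (0.31, adjusted p = 0.0769). Pnmt was called under every alternative in PD16 amitrole against PD16 Vehicle and in PD16 vehicle and methimazole against GD21. Chga, Slc18a1 and Phox2a rest on few counts a library, so smaller changes in them were not detectable at this depth. No paired analysis was possible because the groups share no library number.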
